A study of Mus musculus with 4 samples.

Results

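The 9 genes described here encode subunits of NADPH oxidases, the enzyme complexes that transfer electrons from NADPH to oxygen and so make superoxide or hydrogen peroxide, and superoxide dismutases, which turn superoxide into hydrogen peroxide. They were chosen by symbol: Cybb, Cyba, Ncf1, Ncf4 and Rac2 of the phagocyte oxidase, Nox4 and Nox1 as oxidases of the vessel wall, and the dismutases Sod2 and Sod3. All 9 were found among 22180 genes, each on 1 row of the array table that names a single gene, and none had a second row. The cells were primary vascular smooth muscle cells, which make up the contractile layer of arteries, cultured for 5 days from mouse thoracic aortas that had been stripped of adventitia and digested with collagenase. Knockout cells came from SM22α-Cre(+)Mmp14(fl/fl)Apoe(−/−) mice and control cells from SM22α-Cre(−)Mmp14(fl/fl)Apoe(−/−) mice, with 2 arrays in each group. Every animal lacked Apoe, carried floxed Mmp14, the gene of the membrane collagenase MT1-MMP, and had eaten a Western diet for 3 months; the labels give no ages. Cre was driven by the SM22α (Tagln) promoter, which is active in smooth muscle, so other cell types in a culture need not have lost Mmp14, and no cell sort is named in the labels. The comparison of knockout with control cells asks which transcripts depend on MT1-MMP, here for the genes that make and remove superoxide.

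In resting phagocytes the catalytic flavocytochrome, formed by gp91phox (Cybb) and p22phox (Cyba), sits in the membrane, while the regulatory subunits, among them p47phox (Ncf1) and p40phox (Ncf4), wait in the cytosol. On activation the cytosolic subunits and the GTP-bound GTPase Rac2 join the membrane pair and the complex releases a burst of superoxide that helps to kill microbes. Smooth muscle cells use the Cybb homologues Nox1, which needs p22phox and organiser and activator proteins, and Nox4, which needs p22phox only, is active without cytosolic subunits and gives mainly hydrogen peroxide. Superoxide is removed in mitochondria by the manganese enzyme Sod2 and outside the cell by the copper-zinc enzyme Sod3, which is abundant in the arterial wall.

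The promoters of the 3 catalytic subunits are shown because they are the homologous genes between which the phagocyte and the vessel-wall oxidases differ. RefSeq promoter sequences of build GRCm38.p6 were at hand for 6 of the 9 genes (Cybb, Cyba, Ncf1, Nox4, Nox1 and Sod2). Each run gives the 250 bases before the annotated start, read toward the gene: Cybb at chrX:9469325-9469574 (minus strand), Nox4 at chr7:87246399-87246648 (plus strand) and Nox1 at chrX:134111855-134112104 (minus strand). Capitals mark every match, on either strand, to the letters GAGGAA (a form of the site of PU.1, a myeloid factor), TGANTCA (AP-1) or TTGCNNCAA (C/EBP). Matches to CCAAT (the site of NF-Y) and to the CArG box of smooth muscle genes are marked likewise.
Cybb: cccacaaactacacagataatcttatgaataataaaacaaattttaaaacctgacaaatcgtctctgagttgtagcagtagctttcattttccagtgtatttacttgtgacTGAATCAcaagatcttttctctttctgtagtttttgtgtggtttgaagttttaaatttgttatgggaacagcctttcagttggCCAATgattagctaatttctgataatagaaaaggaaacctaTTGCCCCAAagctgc
Nox4: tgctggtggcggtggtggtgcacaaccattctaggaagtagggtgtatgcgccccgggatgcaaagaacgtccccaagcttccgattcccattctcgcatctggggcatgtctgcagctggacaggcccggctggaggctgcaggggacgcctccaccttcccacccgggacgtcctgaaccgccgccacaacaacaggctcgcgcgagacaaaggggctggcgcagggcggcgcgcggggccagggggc
Nox1: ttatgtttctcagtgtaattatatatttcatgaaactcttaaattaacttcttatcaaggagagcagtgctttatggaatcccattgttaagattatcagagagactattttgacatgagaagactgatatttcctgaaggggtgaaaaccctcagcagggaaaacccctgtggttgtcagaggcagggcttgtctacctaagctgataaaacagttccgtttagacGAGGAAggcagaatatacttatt

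The Cybb window held 1 match to TGANTCA, 1 NF-Y match and 1 match to TTGCNNCAA, and none of these overlapped. The first, TGAATCA, has A at its centre, where the common AP-1 site has C or G. The last, TTGCCCCAA, has a wider spacing than the C/EBP palindrome, so it is not counted as a C/EBP site. The Nox4 window, in which 67.2% of bases were G or C against 34.0% for Cybb and 38.0% for Nox1, held none of the motifs searched. The Nox1 window held 1 PU.1 match, and that of Sod2 held 1 PU.1 match and 1 NF-Y match, while the windows of Cyba and Ncf1 held none of the motifs. Of 32851 mouse promoter windows of the same length, 23.3% held the PU.1 letters, 6.75% TGANTCA and 1.74% TTGCNNCAA. The NF-Y letters were in 33.8% and a CArG box in 1.47%. A match is only a match of letters and does not show that a factor binds there. Other forms of these sites were not searched, so a window without a match is not shown to lack a site.

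The arrays gave log2 expression values, so equal ratios of level give equal differences. Array medians were 3.05 and 3.03 in the knockouts and 3.01 and 3.01 in the controls. Mmp14 itself read 8.27 and 8.19 in the knockout arrays and 8.71 and 9.05 in the control arrays, a difference of -0.65 (SE 0.17) that did not pass the test over all genes (limma, adjusted p = 0.319). Its row sums up probes over the whole gene, some of which can lie outside the deleted part, so this checks the labels only in part. Smooth muscle identity genes had a wide range of levels. Acta2, smooth muscle alpha actin, read 11.40 and 10.89 in the knockouts and 11.33 and 11.05 in the controls. Tagln read 10.41 and 9.81 in the knockouts and 10.46 and 9.77 in the controls. Myocd read 3.26 and 3.12 in the knockouts and 3.39 and 3.26 in the controls, so presence was not shown for every such gene. Of the macrophage transcripts Lyz2, a lysozyme of myeloid cells, was high on every array, at 11.11 and 11.34 in the knockouts and 11.00 and 11.01 in the controls. A level filter at the median of the row means (3.02) was set for the main test, which kept 12550 genes and 8 of the 9; Nox1 lay below that level. At an adjusted p under 0.05 limma called 0 of the 8 and 0 of the 12550 genes (0%), and the smallest adjusted p of any gene was 0.104. At an unadjusted p under 0.05 there were 1465 genes (11.7%), 614 of them higher (4.89%) and 851 lower (6.78%) in the knockouts.

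All 5 phagocyte oxidase genes read higher on both knockout arrays than on either control array, with a median difference of 1.38, against -0.05 over all genes tested. Groups without overlap and higher in the knockouts were seen for 16.7% of the tested genes, and without overlap in either direction for 44.3%. Of the 5, 4 had an unadjusted p under 0.05 in the main limma fit, which has no pairing. Cybb missed it, and none passed after adjustment over all genes. In a bulk culture more cells of a type and more RNA per cell cannot be told apart, and neither can fewer cells and less RNA.

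**Figure D1:**
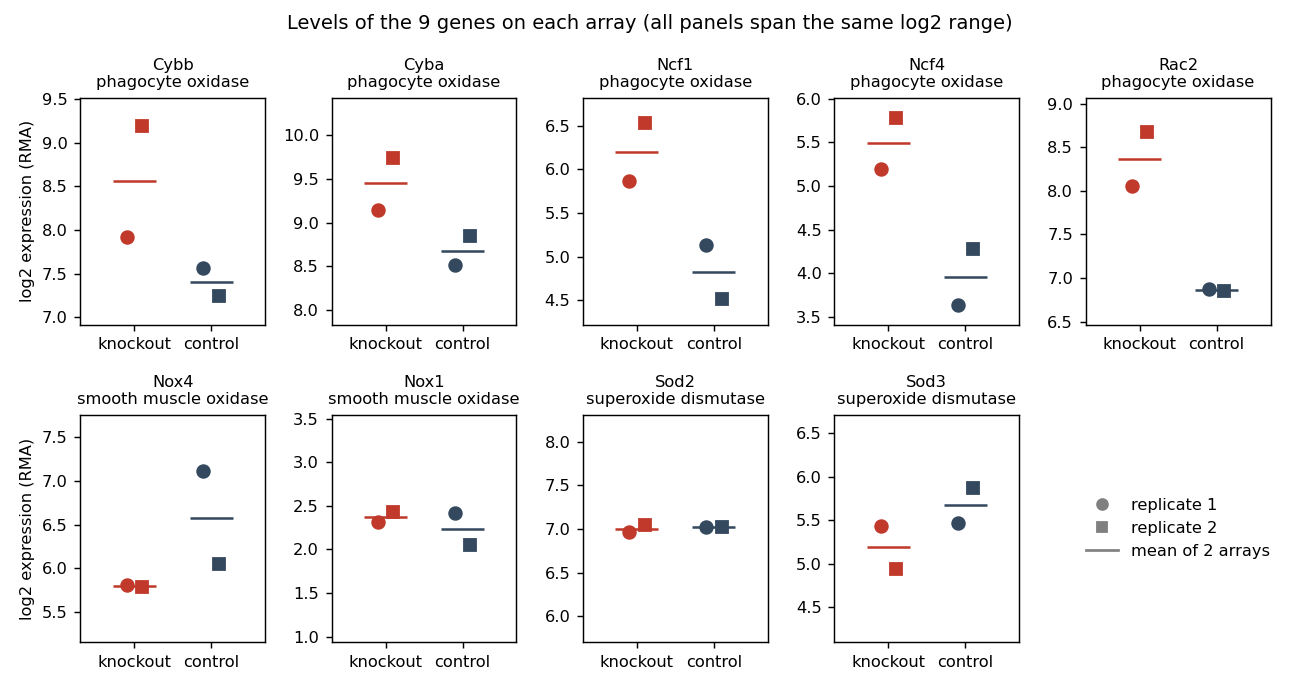
Log2 expression (RMA) of each of the 9 genes on the 2 knockout arrays (left, red) and the 2 control arrays (right, dark), with lines at the group means; every panel spans the same number of log2 units. The 5 phagocyte oxidase genes lie higher in the knockouts, Nox4 is lower there than on both control arrays, and the Nox1 and Sod2 groups overlap.

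Cybb encodes gp91phox, the catalytic chain that carries the electrons. Its values were 7.92 and 9.19 in the knockout arrays and 7.57 and 7.24 in the control arrays. The knockout arrays were both higher, but knockout replicate 1 lay only 0.34 above the higher control, and the knockout arrays differed from each other by 1.28, more than the groups did. The mean was 8.56 ± 0.90 in knockouts and 7.40 ± 0.24 in controls (SD, n = 2 each), a difference of 1.15 (SE 0.45, 95% interval -0.02 to 2.32), or 2.22 times (limma, adjusted p = 0.438). Leaving out knockout replicate 2 brought the difference to 0.51, and leaving out knockout replicate 1 to 1.79.

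Cyba encodes p22phox, the partner that stabilises the catalytic chain and that Nox1 and Nox4 also use. It read 9.15 and 9.74 in the knockout arrays and 8.52 and 8.85 in the control arrays. The nearest arrays of the groups were 0.30 apart, less than the 0.59 between the knockout arrays. Its difference of 0.76 (SE 0.26, 95% interval 0.09 to 1.43), or 1.70 times, was the smallest of the 5 (limma, adjusted p = 0.385). It was 0.47 without knockout replicate 2.

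Ncf1 encodes p47phox, the organiser whose phosphorylation starts assembly. Its levels were 5.87 and 6.53 in knockouts and 5.13 and 4.51 in controls, with the lower knockout 0.73 above the higher control. The difference was 1.38 (SE 0.32, 95% interval 0.53 to 2.22), or 2.60 times (limma, adjusted p = 0.28).

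Ncf4 encodes p40phox, which binds a phosphoinositide of phagosome membranes. It read 5.19 and 5.78 in knockouts and 3.64 and 4.28 in controls, and both group means stayed above the level filter. The groups were 0.91 apart at their nearest arrays. The difference of 1.53 (SE 0.31, 95% interval 0.71 to 2.34), or 2.88 times, was the highest estimate among the 9 genes (limma, adjusted p = 0.251).

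Rac2 encodes the Rac GTPase of blood cells that switches the phagocyte complex on. It read 8.06 and 8.68 in knockout arrays and 6.88 and 6.85 in control arrays. The controls lay close together, and the nearest arrays of the groups were 1.18 apart. The mean was 8.37 ± 0.44 in knockouts and 6.86 ± 0.02 in controls (SD, n = 2 each), a difference of 1.50 (SE 0.24, 95% interval 0.87 to 2.13), or 2.84 times (limma, adjusted p = 0.193). This was the lowest p of the 9 genes, and 0.438% of tested genes had a larger positive difference. Rac1, the Rac protein of most cell types, read 9.78 and 9.93 in knockouts and 10.08 and 9.97 in controls, a difference of -0.17.

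The estimates of the 5 phagocyte genes ran from 0.76 to 1.53, and their 95% intervals overlapped, so their order is not set by these arrays. Each of the 5 read higher in knockout replicate 2 than in knockout replicate 1, by 0.59 to 1.28. Of all 12550 tested genes 6642 read higher in knockout replicate 2. Against the control mean the 5 had a median of 1.05 for knockout replicate 1 and of 1.79 for knockout replicate 2.

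**Figure D2:**
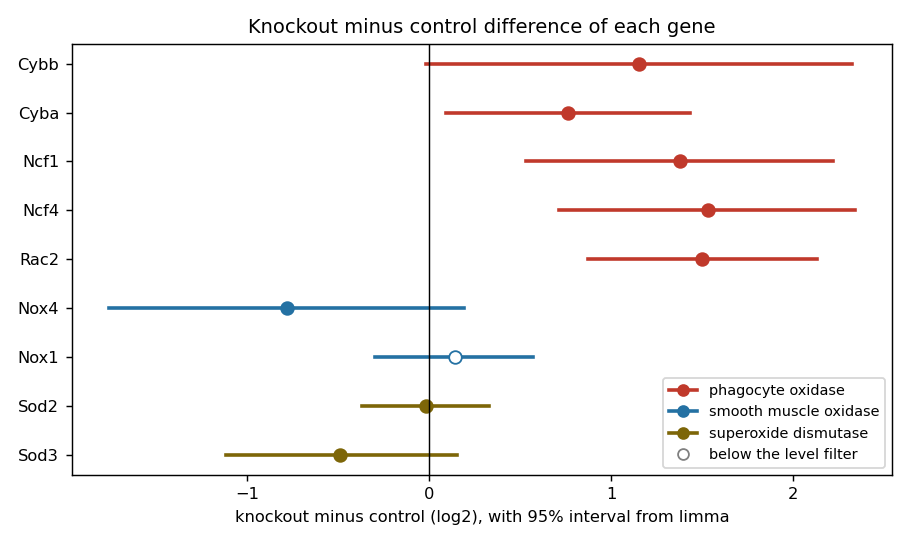
Knockout minus control difference of each of the 9 genes on the log2 scale, with 95% intervals from limma; the open point, Nox1, lies below the level filter and comes from a fit of all genes. The intervals of Cyba, Ncf1, Ncf4 and Rac2 lie above 0 and those of the other 5 genes cross 0.

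Nox4, the constitutively active oxidase of the vessel wall, had the opposite direction to its partner Cyba. Its levels were 5.81 and 5.79 in the knockout arrays and 7.12 and 6.05 in the control arrays. Both knockouts were lower than both controls, as was seen for 27.5% of tested genes, but the control arrays lay far apart while the knockouts nearly coincided. The mean was 5.80 ± 0.01 in knockouts and 6.58 ± 0.76 in controls (SD, n = 2 each), a difference of -0.78 (SE 0.37, 95% interval -1.76 to 0.19), or 0.581 times (limma, adjusted p = 0.497). The size rested on control replicate 1: leaving that array out gave a difference of -0.25, and leaving out control replicate 2 gave -1.32.

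Nox1, an oxidase that smooth muscle can induce in response to growth factors, had a mean below the level filter. It read 2.31 and 2.43 in knockouts and 2.42 and 2.05 in controls, and the groups overlapped. In a fit of all 22180 genes its difference was 0.14 (SE 0.17, 95% interval -0.30 to 0.57; limma, adjusted p = 0.857). No background level was measured, so how far these values lie above background is not known.

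Cybb of the phagocyte oxidase and Nox4 of the vessel wall are both catalytic chains, and their contrast can be given as a ratio. Set against the control mean, the log2 ratio of Cybb to Nox4 was 1.29 and 2.58 on the knockout arrays and -0.37 and 0.37 on the control arrays. Both knockout arrays were above both controls, which follows from the higher Cybb and the lower Nox4 and adds nothing to them. The mean change of the ratio was 1.93, or 3.82 times. Its size depended on single arrays: Cybb differed by 0.51 without knockout replicate 2, and Nox4 by -0.25 without control replicate 1. Nox1, the other vessel-wall chain, was left out of the ratio, and its groups overlapped with a difference of 0.14. The pair of Cybb and Nox4 was chosen after its values were seen, and no test was made of it. The smallest two-sided p that an exact permutation of these arrays allows is 0.333.

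The dismutases did not follow the phagocyte genes. Sod2 read 6.96 and 7.05 in knockouts and 7.02 and 7.02 in controls, so the groups overlapped. Its difference was -0.02 (SE 0.13, 95% interval -0.37 to 0.33; limma, adjusted p = 0.976), and it took the other sign, at 0.03, when the arrays were quantile normalised again or knockout replicate 1 was left out. Differences within that interval could not be told from 0 with these arrays.

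Sod3, the extracellular dismutase, read 5.43 and 4.94 in knockout arrays and 5.47 and 5.87 in control arrays. The knockouts were lower, but the nearest arrays of the groups were only 0.04 apart, and the arrays within each group differed by more. The difference was -0.49 (SE 0.24, 95% interval -1.12 to 0.15), or 0.713 times (limma, adjusted p = 0.517). Leaving out knockout replicate 2 gave -0.24, and leaving out control replicate 2 gave -0.29.

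Other oxidase subunits and partners went different ways. Of 18 such genes, 14 had a row of their own and 9 passed the level filter, with 5 higher and 4 lower, a median of 0.07 and 0 called over all genes. Rap1a, Noxo1, Duoxa2 and Arhgdia were not analysed here. Vav1, a blood-cell exchange factor that loads Rac with GTP, read 5.63 and 5.86 in knockouts and 4.52 and 3.77 in controls, a difference of 1.60 (SE 0.29; limma, adjusted p = 0.218). Hvcn1, the proton channel that balances the charge moved by the phagocyte oxidase, read 5.52 and 6.97 in knockouts and 5.44 and 5.43 in controls, so that its difference of 0.81 (SE 0.49) came almost wholly from knockout replicate 2. Cybc1, a chaperone that Cybb and Cyba need, differed by 0.23 (SE 0.14), and Poldip2, a partner of p22phox that raises Nox4 activity, by -0.28 (SE 0.17). The groups of Sh3pxd2b (0.64), Sh3pxd2a (-0.20), P4hb (-0.03) and Arhgdib (0.07) overlapped. Nox3, Noxa1, Duox1, Duox2 and Duoxa1 lay below the level filter, as Nox1 did.

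Enzymes that remove superoxide and peroxide outside the 9 genes had a median difference of -0.10 over the 14 tested of 17 listed. Of the 14, 4 were higher and 10 lower, with 0 called and none at an unadjusted p under 0.05. Of all 12550 tested genes 5236 were higher and 7314 lower in the knockouts. Sod1, the cytosolic dismutase, read 10.29 and 10.32 in knockouts and 10.34 and 10.55 in controls, a difference of -0.14. Gpx8, a peroxidase of the endoplasmic reticulum, differed by -0.53 (SE 0.23), and the peroxiredoxins Prdx4 and Prdx3 by -0.36 and -0.23. Atp7a, the copper pump that supplies Sod3 with its metal, read 6.27 and 6.41 in knockouts and 6.07 and 5.75 in controls, a difference of 0.43 (SE 0.17; limma, adjusted p = 0.447). Sod3 and Atp7a thus had opposite directions, and neither passed.

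**Figure D3:**
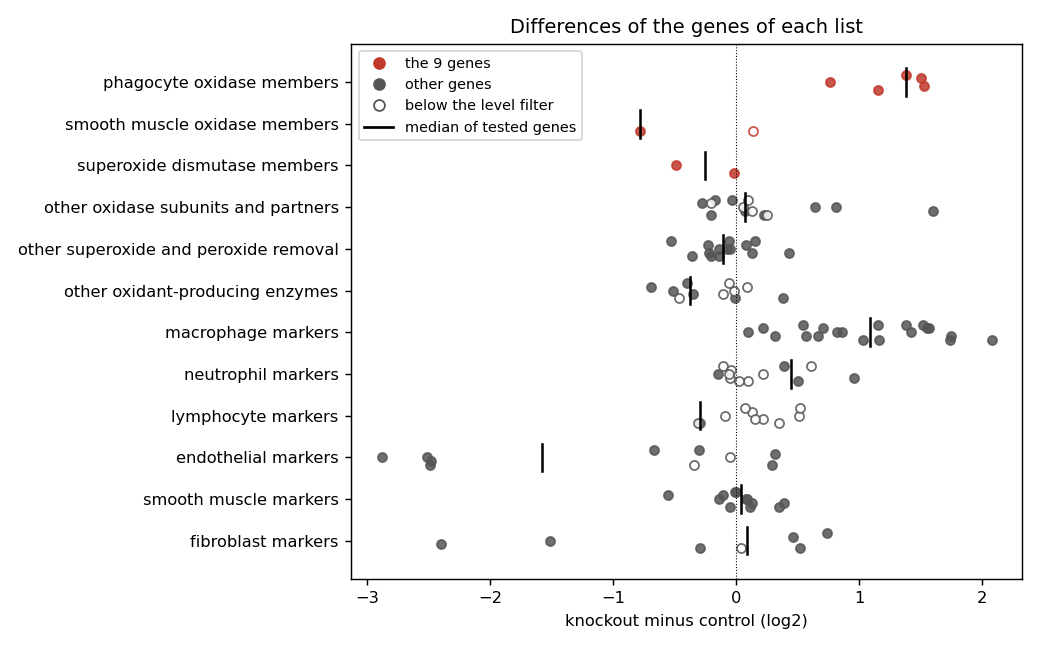
Knockout minus control difference (log2) of each gene, by list, with black bars at the median of the tested genes and open points for genes below the level filter. The phagocyte oxidase genes (median 1.38) lie in the range of the macrophage markers (median 1.09), while most other oxidase and peroxide-removing genes lie near 0.

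Macrophage markers differed in the same direction as the phagocyte oxidase genes. All 20 macrophage markers were higher in the knockouts, 18 of them without overlap, beside 16.7% of all tested genes. Of the 20, 15 were higher at an unadjusted limma p under 0.05, beside 4.89% of all tested genes. Their median difference was 1.09, beside 1.38 for the phagocyte oxidase genes. Their mean level was 8.06 and 8.34 on the knockout arrays and 7.15 and 7.13 on the control arrays. Mrc1, the mannose receptor, differed by 2.08, Ptprc, the leukocyte antigen CD45, by 1.75, Adgre1, an adhesion G protein-coupled receptor of macrophages, by 1.74 and Trem2 by 1.57. Aif1, Lyz2 and Mertk differed by only 0.10, 0.22 and 0.32, and the groups of Aif1 and Mertk overlapped. Spi1, the gene of the myeloid factor PU.1, read 5.89 and 6.44 in knockouts and 5.08 and 5.53 in controls. The part of these markers in the higher levels of the phagocyte oxidase genes was not tested.

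Neutrophils and lymphocytes also express oxidase genes, Rac2 among them. Of 12 neutrophil markers 8 lay below the level filter, among them S100a9, Ly6g, Elane and Mpo, and the list's mean level was 2.96 and 3.33 on knockout arrays and 2.92 and 2.96 on control arrays. Of the 4 tested, 3 read higher in knockout replicate 2 than in knockout replicate 1, beside 6642 of all 12550 tested genes. Against the control mean the 4 had a median of -0.23 for knockout replicate 1 and of 0.81 for knockout replicate 2. Csf3r, the receptor of the granulocyte growth factor G-CSF and the only one of them without overlap, read 3.72 and 3.23 in knockouts and 3.17 and 2.99 in controls, a difference of 0.39. S100a8 read 4.72 and 6.67 in knockouts and 4.96 and 5.43 in controls, and the neutrophil collagenase Mmp8 read 3.16 and 5.40 in knockouts and 3.32 and 3.32 in controls. Cxcr2, a chemokine receptor, differed by -0.15, and Ly6g, below the filter, read 3.13 and 2.30 in knockouts and 2.34 and 2.65 in controls. Retnlg, also below the filter, read 2.29 and 3.43 in knockouts and 2.18 and 2.32 in controls. Of the 10 lymphocyte markers measured, 9 lay below the filter, with a mean level of 2.66 and 2.92 on knockout arrays and 2.63 and 2.69 on control arrays. The T cell genes Cd3e, Cd3d and Cd3g, all below the filter, read 3.56, 3.17 and 3.16 in knockout replicate 2, above their values on the other 3 arrays. Klrb1c, the only lymphocyte marker tested, went the other way and was lowest in knockout replicate 2. It read 3.37 and 3.11 in knockouts and 3.23 and 3.83 in controls, a difference of -0.29. The part of these markers in the oxidase values was not tested.

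Nox4 is also expressed by endothelial cells and fibroblasts. Of the 8 endothelial markers tested 6 were lower in the knockouts, all without overlap, beside 27.5% of all tested genes. Kdr was higher by 0.32 without overlap, and Vwf by 0.29 with overlapping groups. The mean level of the list of 10 was 3.82 and 4.04 on knockout arrays and 5.24 and 4.84 on control arrays. Control replicate 1, the array with the highest Nox4, was also the highest for Cdh5, which encodes VE-cadherin, at 5.0 and 5.68 in knockouts and 8.72 and 6.97 in controls. Ptprb, Pecam1 and Emcn differed by -2.88, -2.49 and -2.48. Of the 6 fibroblast markers tested 3 were higher and 3 lower, with a median of 0.09. Cd34, which endothelium shares, differed by -2.40, Dpt by -1.51, Pdgfra by -0.29, Serpinf1 by 0.52, Dcn by 0.46 and Lum by 0.74, and the list's mean level was 5.47 and 5.54 in knockouts and 5.70 and 6.01 in controls. The 12 smooth muscle markers had a median difference of 0.04, with 6 higher and 6 lower; Smtn, smoothelin, differed by -0.55 and Myocd by -0.14, and the mean level was 6.73 and 6.28 in knockouts and 6.57 and 6.39 in controls. The part of the endothelial and fibroblast markers in the lower Nox4 values was not tested.

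**Figure D4:**
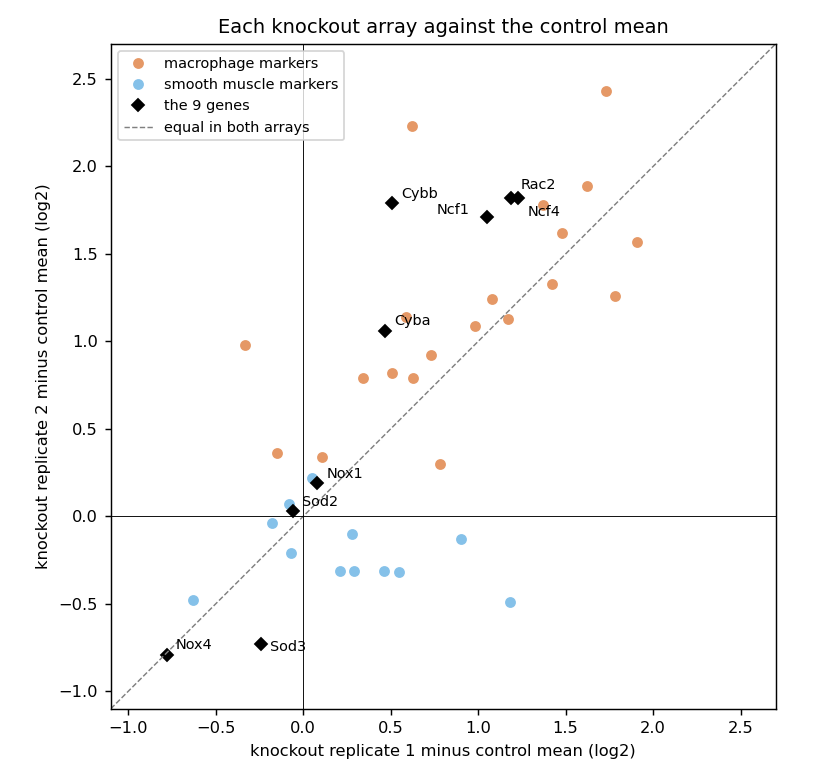
Level on knockout replicate 1 (horizontal) and knockout replicate 2 (vertical), each minus the control mean (log2), for the 9 genes, the macrophage markers and the smooth muscle markers; the dashed line marks equal values. The 5 phagocyte oxidase genes lie above the line, Cybb farthest at 0.51 and 1.79, and Nox4 lies on it at -0.78 and -0.79.

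Against the control mean the macrophage markers had a median of 0.88 for knockout replicate 1 and of 1.14 for knockout replicate 2. Of the 20, 15 were higher in knockout replicate 2, beside 6642 of all 12550 tested genes. The phagocyte oxidase genes, at 1.05 and 1.79, had the same order of arrays. Itgam, the integrin chain CD11b, split the knockouts as Cybb did, with 6.41 and 8.02 in knockouts and 5.71 and 5.88 in controls, whereas Adgre1 read 7.92 and 7.59 in knockouts and 6.07 and 5.96 in controls and had the other order.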

How the data were processed

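Total RNA of 4 cultures was amplified and hybridised to Mouse Gene ST 2.1 arrays, 1 array per culture. The deposited values are log2 expression, which the authors obtained by RMA, a method that corrects background, normalises between arrays and sums up probes per row, per the submitters' processing notes. Their range (1.17 to 12.39) gave the log base. No source used here gives the RMA version, chip definition or build. Rows were named through the platform annotation (23521 of 41345 with 1 symbol), and the row with the highest mean was kept per gene. Genes were fitted with limma 3.58.1 (R 4.3.3; lmFit and eBayes, no covariates), knockout minus control, on 12550 genes with a mean of at least 3.02, with Benjamini-Hochberg adjustment over all of them; the fit was tested on simulated data. The series' design speaks of independent pairs of mice, but the labels do not mark the pairs, so the main fit has no pairing. The spread within a group holds that of mice, cultures and arrays. Depth does not apply to arrays, and their number limits the precision. All 9 genes are named, with up to 4 genes per other list that had the largest differences without overlap. Named after their values were seen were Rac1, Sod1, Lyz2, Acta2, Tagln, Spi1, Itgam, S100a8, Mmp8, Cxcr2, Ly6g, Retnlg, Klrb1c and the Cd3 genes. So were Kdr, Vwf, Mertk, Aif1, Pdgfra, Dcn, Lum, Sh3pxd2a, Sh3pxd2b, P4hb, Arhgdib, Xdh and genes listed as below the filter. A gene taken off the list of oxidase partners is not reported here. The genes and lists were chosen with earlier results of these data known. Alternatives were other filters, normalisations, row rules, eBayes settings, array weights, a threshold of 0.1, the title number as a block and leaving out each array. Figures were drawn with matplotlib 3.10.9.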

Additional observations from a re-analysis of the deposited data

How the results depend on the processing

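The count of genes called, and of the 9 called, was 0 under all 14 alternatives. Over 114 values of single genes under the alternatives, 3 took the other sign: Sod2 with a second quantile normalisation (0.03) and without knockout replicate 1 (0.03), and Nox1 without control replicate 2 (-0.05). The other 7 genes kept their direction. With the title number as a replicate block the median of the phagocyte genes was again 1.38 and 0 genes were called; Ncf4 had an adjusted p of 0.0994 and Rac2 of 0.128 (limma). The block changed no call, but it brought the unadjusted p of Cybb to 0.0353 and that of Nox4 to 0.0439 (limma). The labels do not say that a number marks a pair, and same-numbered arrays deviated together with r = 0.045 across genes, which are not independent replicates. Leaving out single arrays moved the median of the phagocyte genes between 1.05 and 1.79, and it was 1.79 without knockout replicate 1; a lone array was taken to have the spread of the 2 in the other group. The same refits gave -0.05 to 0.32 for Nox1 and -0.06 to 0.03 for Sod2. Over all alternatives the adjusted p of Rac2 ran from 0.0899 to 0.518, that of Cybb from 0.0899 to 0.696 and that of Nox4 from 0.356 to 0.792. Ncf4 and Nox1 did not pass the filter at the 75th percentile, so neither has a value there. Dim genes such as Nox1 are limited by an unknown background.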

Other observations

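Of 12 other oxidant-producing enzymes, 11 had a row of their own and 6 passed the level filter. Of the 6, 1 was higher and 5 were lower in the knockouts, with a median difference of -0.37 and 0 called over all genes. More of the 12550 tested genes were lower (7314) than higher (5236) too. Maoa, a mitochondrial monoamine oxidase that gives hydrogen peroxide, read 6.96 and 7.20 in knockouts and 7.57 and 7.61 in controls, a difference of -0.51 (SE 0.15; limma, adjusted p = 0.356). Ptgs2, the inducible cyclooxygenase, read 9.36 and 9.73 in knockouts and 10.53 and 9.94 in controls, a difference of -0.69 (SE 0.26; limma, adjusted p = 0.422). Xdh, xanthine dehydrogenase, had overlapping groups, at 6.74 and 5.97 in knockouts and 5.32 and 6.63 in controls. Nos1, Nos2, Mpo, Aox1 and Alox15 lay below the filter.

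Among the tested genes, those whose values over the 4 arrays lay nearest to Cybb, each gene centred on its own mean, were Fgf5, Itgb2, Tnfrsf1b and Tifab, at distances of 0.112 to 0.157 log2 units. Itgb2, the integrin chain CD18 of leukocytes, read 7.79 and 9.08 in knockouts and 7.31 and 7.11 in controls. Fgf5, a fibroblast growth factor, read 4.39 and 5.58 in knockouts and 4.09 and 3.77 in controls. Nearest to Nox4 were Adcy4, Morn4, Flt4 and Amot, at distances of 0.05 to 0.078. Flt4, the receptor VEGFR-3 of lymphatic endothelium, read 3.68 and 3.69 in knockouts and 4.98 and 4.0 in controls. With 4 arrays many genes can match any pattern, so these are descriptions only.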
